A study of Mus musculus with 2 samples.

Results

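The BCL2 family was examined in lineage-depleted mammary epithelial cells (MECs) from lactation day 3 glands of wild-type (WT) and *Igfbp7*-/- mice. The 10 members were taken by symbol from the 25810 named genes of the deposited tables, 4 that protect cells (*Bcl2*, *Bcl2l1*, *Bcl2l2* and *Mcl1*) and 6 that promote death (*Bax*, *Bak1*, *Bad*, *Bid*, *Bcl2l11* and *Bmf*). All 10 reached at least 1 RPM (reads scaled to the mapped total of the library) in at least 1 library, as did 14026 of all named genes. The study compared 1 poly(A) RNA library of each genotype, so no replicate spread could be measured. Cells of the inguinal glands were dissociated, and cells carrying CD45, CD31 or Ter119 (leukocyte, endothelial and erythroid antigens) were removed with magnetic beads. The sample labels name CD35 where the methods name CD31. The *Igfbp7*-/- mice lack the first coding exon of *Igfbp7* in every tissue, and the WT library came from mice with the intact gene. The labels give C57BL/6 as the genetic background of both libraries, whereas the methods place the knockout on CD1. How many animals entered each library was not given in the sources used here.

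Proteins of this family decide whether the outer membrane of the mitochondrion stays intact. BAX and BAK open pores in that membrane, which releases cytochrome c and starts the caspase cascade. BCL2, BCL-X (*Bcl2l1*), BCL-W (*Bcl2l2*) and MCL1 hold these effectors and their activators in check. The BH3-only proteins BAD, BID, BIM (*Bcl2l11*) and BMF carry a stress signal to the other members through a short helix, the BH3 domain. In the mammary gland, removal of milk-producing cells after weaning runs partly through this pathway, and much of its control (phosphorylation of BAD, cleavage of BID, turnover of MCL1) acts on the protein and is not seen by mRNA counts.

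The BH3 helix is the feature that all 10 members share, and its coding sequence is shown to let the members be compared. Each line gives 27 bases (9 codons) of the transcript strand, read from the GENCODE transcripts of the NCBIM37 mouse build, with the genomic interval on that build. Capitals mark the first codon of the core, which encodes leucine in 9 members and methionine in *Bcl2l2*, and the adjoining codons for a small residue and the aspartate. Each window lies within a single coding exon.
*Bcl2* (chr1:108609152-108609178, minus strand, exon 1): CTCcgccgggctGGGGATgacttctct
*Bcl2l1* (chr2:152655433-152655459, minus strand, exon 2): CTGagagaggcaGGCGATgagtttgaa
*Bcl2l2* (chr14:55503354-55503380, plus strand, exon 3): ATGcgggctgctGGAGACgagtttgag
*Mcl1* (chr3:95463359-95463385, plus strand, exon 2): CTGcggcgcgtgGGCGACggcgtgcag
*Bax* (chr7:52721367-52721393, minus strand, exon 3): CTCcggcgaattGGAGATgaactggac
*Bak1* (chr17:27159476-27159502, minus strand, exon 4): CTTgctctcatcGGAGATgatattaac
*Bad* (chr19:7025282-7025308, plus strand, exon 3): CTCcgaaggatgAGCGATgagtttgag
*Bid* (chr6:120847307-120847333, minus strand, exon 4): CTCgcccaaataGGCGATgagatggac
*Bcl2l11* (chr2:127972886-127972912, plus strand, exon 3): CTGcggcggatcGGAGACgagttcaac
*Bmf* (chr2:118370836-118370862, minus strand, exon 4): CTTcagtgtattGCAGACcagttccat
The windows were found by searching the translated transcripts for leucine followed, at a fixed spacing, by glycine, alanine or serine and then aspartate. For *Bcl2l2*, methionine with glycine and aspartate was also allowed. The aspartate codon in all 10 windows was therefore set by the search. A glycine codon stood before it in 8. *Bad* has a serine codon and *Bmf* an alanine codon at that place. The deposited tables give 1 count per gene, so transcripts that lack this helix could not be told from those that carry it. All annotated coding transcripts of *Bcl2*, *Mcl1*, *Bax* and *Bmf* held a match to the search pattern. A match was found in 8 of 9 for *Bcl2l1*, 4 of 5 for *Bcl2l11*, 3 of 4 for *Bcl2l2*, 2 of 3 for *Bid*, and 3 of 5 for each of *Bak1* and *Bad*. Whether each match was the printed window was not checked, so these counts may include matches outside the core. Transcripts whose annotated coding sequence does not begin with ATG were counted but not searched. The remaining transcripts were therefore not shown to lack the core.

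The WT library held 34327854 mapped reads and the *Igfbp7*-/- library 35016847, so that 1 read was worth 0.0291 and 0.0286 RPM. Low counts were mostly even (75.8% and 74.1% of genes with 1 to 20 reads), and all intervals below were therefore computed on read pairs, each count divided by 2 and rounded down. They are 95% intervals that cover counting error only, not differences between animals. The targeted gene *Igfbp7* was covered by 5224 reads in the WT library and by 37 in the knockout. Marker genes of several cell types differed between the libraries. Among markers with at least 1 RPM, 5 of 8 luminal genes were higher in *Igfbp7*-/- by at least 1.5 times, whereas 5 of 6 basal, 8 of 9 leukocyte, 4 of 5 endothelial and 5 of 5 milk protein genes were lower. Among all 14026 genes with at least 1 RPM, 21.4% were higher and 23.0% were lower by as much. In bulk RNA, fewer cells of a type and less RNA per cell cannot be told apart.

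Levels were compared between members as RPKM, the RPM divided by the gene length that the authors used. *Mcl1*, a short-lived survival protein, had the highest level in both libraries, 150.5 RPKM in WT and 144.0 RPKM in *Igfbp7*-/-. It made up 46.6% and 40.3% of the summed RPKM of the family. *Bid*, whose protein is activated by cleavage downstream of death receptors, and *Bcl2l1* followed in WT at 67.7 and 64.8 RPKM, with overlapping Poisson intervals. In *Igfbp7*-/- this order changed, since *Bcl2l1* stood at 119.9 RPKM (116.6 to 123.2) and *Bid* at 57.9 RPKM (55.4 to 60.6).

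A middle group was formed by *Bak1*, *Bcl2l11* and *Bcl2l2*, at 11.9, 10.9 and 9.69 RPKM in WT and at 8.07, 9.07 and 9.10 RPKM in *Igfbp7*-/-. Neighbours within this group overlapped in their intervals in both libraries. *Bax* lay lower, at 4.06 RPKM (3.07 to 5.18) in WT and 4.73 RPKM (3.70 to 5.96) in *Igfbp7*-/-. The lowest members were *Bmf*, *Bad* and *Bcl2*. *Bcl2*, the founding member of the family, had 1.03 RPKM (0.856 to 1.22) in WT and 0.674 RPKM (0.538 to 0.833) in *Igfbp7*-/-. *Bcl2* was thus lowest per length in both libraries, although its WT interval overlapped that of *Bad*. This rank rests on its length of 7206 bases. By RPM, *Bcl2* (7.40 in WT and 4.85 in *Igfbp7*-/-) lay above *Bax* (3.52 and 4.11) and *Bad* (1.54 and 2.40). Among the genes above the minimum, *Mcl1* ranked at the 98.2nd percentile of RPKM in WT and *Bcl2* at the 17.2nd.

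**Figure D1:**
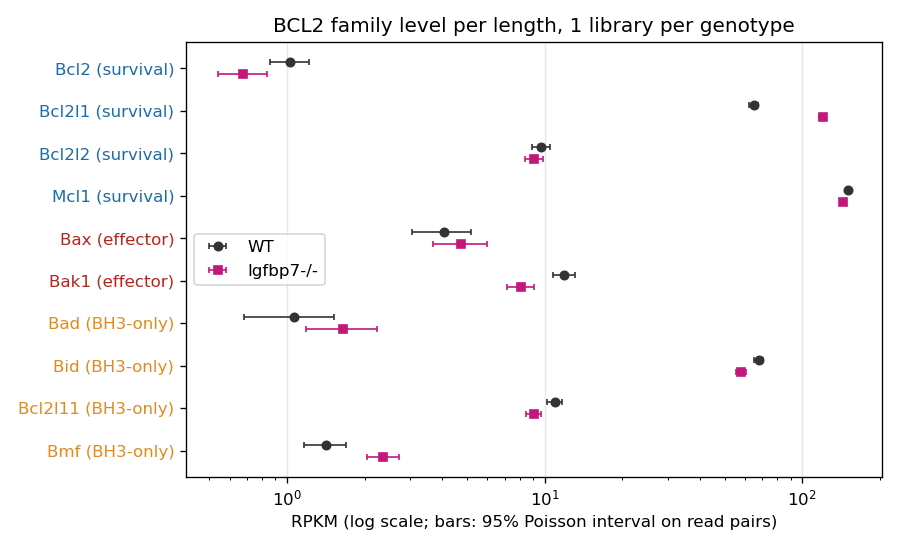
RPKM of the 10 members on a log axis, with WT as black circles and *Igfbp7*-/- as magenta squares, 1 library each, and bars for the 95% Poisson interval on read pairs. *Mcl1*, *Bcl2l1* and *Bid* sit above 50 RPKM in both libraries, and *Bcl2l1* moves from 64.8 to 119.9 RPKM.

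For the comparison of genotypes, the ratio of *Igfbp7*-/- to WT was taken from RPM after adding 0.1 RPM to both values, and a gene was called when it was 1.5 times higher or lower, or more. Of the 10 members, 3 were higher in *Igfbp7*-/- (*Bcl2l1*, *Bmf* and *Bad*) and 1 was lower (*Bcl2*). Among all 14026 genes, 21.4% were higher and 23.0% were lower by the same rule. With 10 members, these counts are close to that background. The median log2 ratio of the 10 members was -0.08, beside 0.03 for all genes. For 2 members the interval lay wholly above a ratio of 1 and for 5 wholly below it, where 34.8% and 32.5% of all genes did so.

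Among the survival members, the largest difference was that of *Bcl2l1*. Its long form, BCL-XL, keeps many differentiated epithelial cells alive. *Bcl2l1* was covered by 5271 reads (153.5 RPM) in the WT library and by 9953 (284.2 RPM) in the *Igfbp7*-/- library, a ratio of 1.85 (log2 0.89, interval 0.82 to 0.96). The long and short forms of BCL-X, which act in opposite directions, share this count. In the same library 5 of 8 luminal markers were higher by at least 1.5 times and 0 were lower by as much, whereas all 5 milk protein genes were lower. Within the threshold, the luminal marker *Elf5* was lower (log2 -0.52, interval -0.61 to -0.43), and *Epcam* (0.51) and *Cdh1* (0.38) were higher. The part of such differences in the *Bcl2l1* value was not tested.

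*Bcl2* differed the other way, with 254 reads (7.40 RPM) in the WT library against 170 (4.85 RPM) in the other. This was 1.51 times lower (log2 -0.60, interval -1.02 to -0.20) and lay just past the threshold. *Bcl2* is strongly expressed in lymphocytes, and leukocyte markers were lower in the same library: *Ptprc*, which encodes CD45, stood at 43.5 RPM in WT and 18.1 RPM in the knockout. Summed over the leukocyte list the level was 682.3 RPM in WT and 133.8 RPM without *Igfbp7*. *Cd74* alone gave 526.6 and 69.7 RPM of these sums. No listed gene was at 0 in both, and the part of these cells in the *Bcl2* value was not tested.

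*Mcl1* was covered by 18072 reads (526.5 RPM) in the WT library and by 17643 (503.8 RPM) in the *Igfbp7*-/- library, a log2 ratio of -0.06 (interval -0.11 to -0.02). At this depth the difference exceeded counting error but was far below the threshold. *Bcl2l2* had 1156 reads (33.7 RPM) and 1108 reads (31.6 RPM), a log2 ratio of -0.09 (-0.26 to 0.08), which counting error covers. These survival genes were therefore close to equal between the libraries, in contrast to *Bcl2l1* and *Bcl2*. GENCODE annotates a further transcription unit, Gm20521, over *Bcl2l2* on the same strand. Gm20521 has no count of its own in the deposited data, so reads from it may be part of the *Bcl2l2* count.

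The pore-forming effectors differed from each other. *Bak1* was covered by 824 reads (24 RPM) in the WT library and by 570 (16.3 RPM) in the *Igfbp7*-/- library, 1.47 times lower (log2 -0.56, interval -0.78 to -0.34). It lay just inside the threshold and the interval left out a ratio of 1. *Bax*, a target of p53, was covered by only 121 reads (3.52 RPM) in the WT library and by 144 (4.11 RPM) in the *Igfbp7*-/- library. Its log2 ratio of 0.22 had an interval from -0.28 to 0.75, so counting error covers both equality and a ratio past the threshold.

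The BH3-only members divided into an abundant and a rare pair. The abundant pair was slightly lower in *Igfbp7*-/-. *Bid* was covered by 4429 reads (129.0 RPM) in the WT library and by 3867 (110.4 RPM) in the *Igfbp7*-/- library (log2 -0.22, interval -0.31 to -0.14). *Bcl2l11*, whose protein BIM binds every survival member, had 1892 reads (55.1 RPM) and 1600 reads (45.7 RPM), with a log2 ratio of -0.27 (-0.41 to -0.13). Neither reached 1.5 times.

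The rare pair was higher. *Bmf*, whose protein is tied to the actin cytoskeleton and is known for its part in the death of detached epithelial cells, was covered by 226 reads (6.58 RPM) in the WT library and by 386 (11.0 RPM) in the *Igfbp7*-/- library. Its ratio was 1.66 (log2 0.73, interval 0.40 to 1.09). *Bad*, a sensor of growth factor signals, was covered by 53 reads (1.54 RPM) in the WT library and by 84 (2.40 RPM) in the *Igfbp7*-/- library, a ratio of 1.52 whose interval (log2 -0.08 to 1.43) held a ratio of 1. The call for *Bad* thus rested on few reads, whereas that for *Bmf* exceeded counting error.

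**Figure D2:**
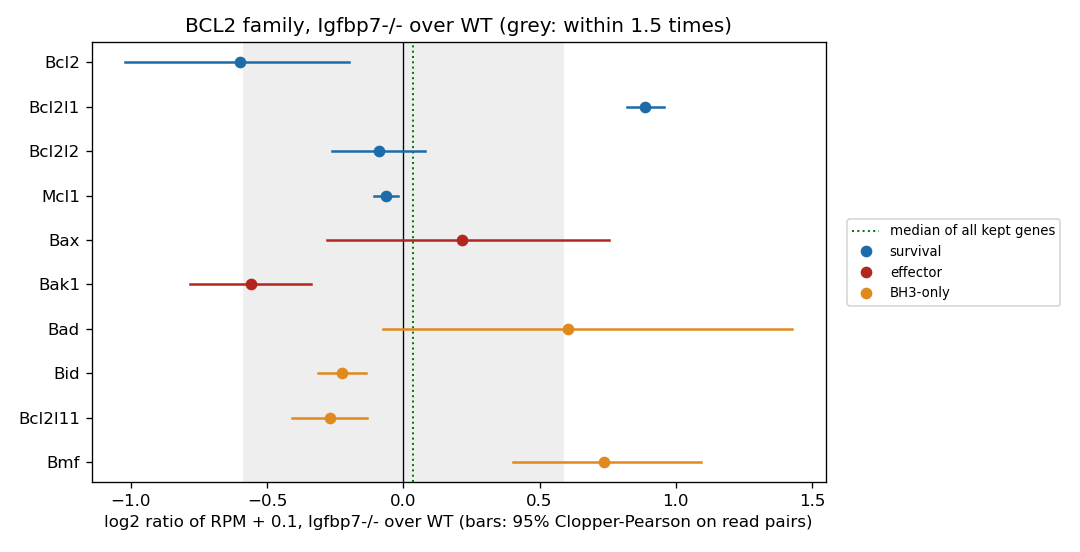
log2 ratio of *Igfbp7*-/- to WT for each member (1 library per genotype), coloured by role, with the 95% Clopper-Pearson interval on read pairs, the zone within 1.5 times in grey and the median of all 14026 genes as a dotted line. *Bcl2l1* (0.89) and *Bmf* (0.73) lie right of the grey zone, and the intervals of *Bax*, *Bad* and *Bcl2l2* cross 0.

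Set against each other, survival and death-promoting members did not separate by direction. The median log2 ratio was -0.08 for the 4 survival members and -0.00378 for the 6 death-promoting members, a difference of -0.07. Each group held members on both sides of 0, from -0.60 to 0.89 among survival members and from -0.56 to 0.73 among death-promoting members.

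Ratios taken within a library do not depend on how libraries are scaled, and were used to compare the balance of the members. The summed RPKM of the survival members was 2.33 times that of the death-promoting members in WT (226.0 against 97.1 RPKM) and 3.26 times in *Igfbp7*-/- (273.7 against 83.8 RPKM). The balance was thus 1.40 times higher in *Igfbp7*-/-. On summed reads the same change was 1.32 times (exact conditional interval 1.25 to 1.39). Most of it came from 1 gene, since the change was 1.10 times when *Bcl2l1* was left out of the sum. A ratio within a library can still vary with its mix of cells, and the part of that mix was not tested.

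All 24 pairs of a survival and a death-promoting member were then compared. The ratio to the death-promoting partner was higher in *Igfbp7*-/- beyond the interval in 8 pairs and lower in 5, and in 11 the interval held 0. By the threshold of 1.5 times, 4 pairs were higher and 7 were lower. The direction of the tally thus differed with the rule. All 4 higher pairs held *Bcl2l1*, and all 7 lower pairs held *Bcl2*, *Bmf* or *Bad*. Among the lower pairs, the intervals of *Mcl1* to *Bad* (-1.49 to 0.01) and *Bcl2l2* to *Bad* (-1.54 to 0.01) held 0. No tally over pairs of other genes was made. *Bcl2l1* gained against *Bak1* (from 5.44 to 14.9 per length, log2 change 1.45, interval 1.22 to 1.68), *Bcl2l11* (1.16, 1.01 to 1.31), *Bid* (1.11, from 0.957 to 2.07 per length) and *Bax* (0.67, 0.13 to 1.17). Against *Bmf* (0.14, -0.21 to 0.49) and *Bad* (0.25, -0.54 to 0.97) its intervals held 0.

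*Bcl2* lost against *Bmf* (-1.35, interval -1.89 to -0.81), *Bad* (-1.24, -2.14 to -0.41) and *Bax* (-0.83, -1.51 to -0.17). The *Bcl2* to *Bax* ratio, a common index of the balance, was 0.253 in WT and 0.142 in *Igfbp7*-/-, whereas the *Bcl2l1* to *Bax* ratio was 16.0 and 25.3. The direction of such an index therefore differed with the survival gene chosen. *Mcl1* lost against *Bmf* (-0.81, -1.16 to -0.46) and gained against *Bak1* (0.50, 0.27 to 0.72). The pairs share members and are not independent of each other.

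**Figure D3:**
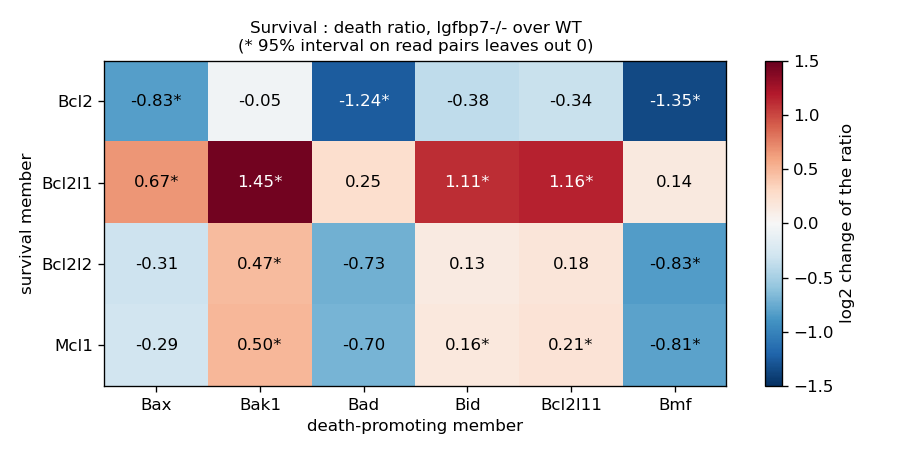
log2 change, *Igfbp7*-/- over WT, of the RPKM ratio of each survival member (rows) to each death-promoting member (columns), with red for a higher ratio in *Igfbp7*-/-, blue for a lower one, and an asterisk where the 95% interval on read pairs leaves out 0. The *Bcl2l1* row is red throughout, from 0.14 to 1.45, and the *Bcl2* row is at or below -0.05.

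Library scaling moved all members together. Of the mapped reads, 82.3% fell on named genes in WT and 72.3% in *Igfbp7*-/-, so scaling to those reads raised the median of all genes by 0.19 on the log2 scale and turned the share of higher genes among called genes from 48.2% to 62.2%. A total that left aside the 20 top genes by RPM shifted the median by -0.14 and gave a share of 37.6%. Over the 7 scalings *Bcl2l1* lay between 0.74 and 1.09 and *Bmf* between 0.59 and 0.94, and both stayed past 1.5 times. *Bcl2* lay between -0.74 and -0.40 and *Bad* between 0.47 and 0.80, on either side of the threshold. *Bak1* passed it (-0.59) with TMM scaling. *Mcl1* and *Bcl2l2* were slightly higher instead of lower (0.12 and 0.10) when reads on named genes were the total.

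**Figure D4:**
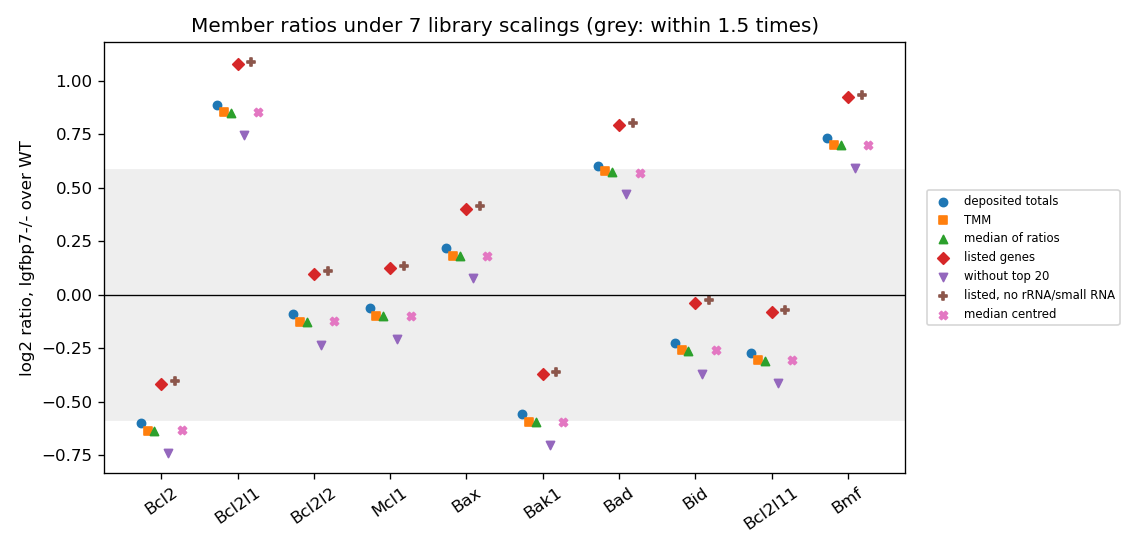
log2 ratio of *Igfbp7*-/- to WT of each member under 7 ways of scaling the libraries, 1 symbol per scaling, with the zone within 1.5 times in grey. The symbols of a member move by the same amount in the same order, and those of *Bcl2l1* and *Bmf* stay above the zone.

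Other relatives of the family were taken from a list of 16 genes, of which 12 reached 1 RPM and *Bcl2a1d*, *Bcl2l10*, *Bcl2l12* and *Hrk* did not. In *Igfbp7*-/-, 2 were higher and 4 were lower, with a median log2 ratio of -0.17. These counts, and those of the lists that follow, are to be read against the 21.4% higher and 23.0% lower among all genes, and nothing particular to a list is read from them. *Bbc3*, which encodes the p53-induced BH3-only protein PUMA, was covered by 162 reads (4.72 RPM) in the WT library and by 368 (10.5 RPM) in the *Igfbp7*-/- library (log2 1.14, interval 0.77 to 1.55). *Bik*, another BH3-only gene, had 74 and 139 reads (0.85, 0.27 to 1.49). *Bok*, a relative of *Bax* and *Bak1*, had 316 reads (9.21 RPM) and 84 reads (2.40 RPM), or -1.90 on the log2 scale (-2.47 to -1.44).

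The remaining lower genes were copies of *Bcl2a1*, a survival gene of blood cells. *Bcl2a1a* was covered by 1094 reads (31.9 RPM) in the WT library and by 135 (3.86 RPM) in the *Igfbp7*-/- library (log2 -3.01), and *Bcl2a1b* had 35.1 and 7.14 RPM (-2.28). *Bcl2a1c* had 40 and 7 reads. These copies are nearly identical, so the split of reads among them is uncertain. Leukocyte markers were lower in the same library, with *Cd74* at 526.6 RPM in WT against 69.7 RPM, and the part of these cells in the *Bcl2a1* values was not tested.

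Downstream of the mitochondrion, 15 genes of the cytochrome c and caspase step were listed and all reached 1 RPM. The list joins activators with inhibitors, among them the inhibitor of apoptosis genes *Xiap*, *Birc2* and *Birc3* (log2 -0.02, 0.19 and 0.51). Of the 15 genes, none was higher by 1.5 times (21.4% of all genes were) and 3 were lower (23.0% of all genes). Their median log2 ratio was -0.02, taken over both roles. *Apaf1*, the scaffold of the apoptosome, was covered by 1607 reads (46.8 RPM) in the WT library and by 643 (18.4 RPM) in the *Igfbp7*-/- library (log2 -1.35, interval -1.54 to -1.16). *Endog*, a mitochondrial nuclease, had 9.15 and 5.54 RPM (-0.71), and *Casp6*, an executioner caspase, had 3.82 and 2.37 RPM (-0.66).

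Of 12 mitochondrial and endoplasmic reticulum partners, 2 were higher and none was lower (median -0.08), beside 21.4% and 23.0% of all genes. They were the calcium release channels *Itpr3*, at 49.1 RPM in WT against 87.4 RPM in the knockout (0.83), and *Itpr2*, with 14.9 and 26.0 RPM (0.80). Of 19 binding partners and kinases, 1 was higher and 3 were lower (median -0.18), beside the same shares of all genes. *Pim3*, a kinase that phosphorylates BAD, had 117.2 and 224 RPM (0.93). The 14-3-3 genes *Ywhag* (368.7 and 225.2 RPM), *Ywhab* (208.3 and 130.0 RPM) and *Sfn* (133.9 and 54.3 RPM), whose family of proteins holds phosphorylated BAD in the cytosol, were lower. Basal markers were lower beside *Sfn*, with *Krt5* at 579.3 and 182.3 RPM, and their part in its value was not tested. None of the 4 genes of MCL1 turnover was called, with log2 ratios between 0.18 and 0.58. The intervals of all 4 lay above a ratio of 1, as did those of 34.8% of all genes. This list joins *Usp9x*, a deubiquitinase of MCL1, with ubiquitin ligase genes.

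Among 12 transcription factors that act on the family, 11 reached 1 RPM, 1 was higher and 4 were lower (median -0.10), where 21.4% and 23.0% of all genes were. *Foxo3*, an activator of *Bcl2l11* and *Bbc3*, was covered by 1277 reads (37.2 RPM) in the WT library and by 4217 (120.4 RPM) in the *Igfbp7*-/- library (log2 1.69, interval 1.57 to 1.83). *Nfkb1* (304.0 and 164.3 RPM, -0.89), *Trp63* (66.1 and 16.6 RPM, -1.99), *Stat5a* (64.8 and 31.4 RPM, -1.04) and *E2f1* (4.54 and 1.29 RPM, -1.75) were lower. *Trp53* had 51.3 and 47.8 RPM (-0.10, -0.24 to 0.04). *Trp63* is a gene of basal cells. Of the 6 basal markers 5 were lower in the same library, and the part of these cells in the *Trp63* value was not tested.

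Since *Foxo3* and *Stat5a* differed, the promoters of the members were searched for the letters bound by their families. RefSeq start sites of the GRCm38.p6 build gave 16 promoter windows for all 10 members, each from 250 bases before to 50 after the start. The FOXO letters GTAAACA, on either strand, were in 1 of these windows and in 3.65% of 32851 windows of all genes. That window belongs to *Bcl2l11* and is printed with the motif in capitals, 227 bases before the start site.
*Bcl2l11* (chr2:128125788-128125842, plus strand): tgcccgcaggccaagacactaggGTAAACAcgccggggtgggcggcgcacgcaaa
*Bcl2l11* itself was slightly lower in *Igfbp7*-/- (log2 -0.27). The STAT letters TTCNNNGAA were in none of the 16 windows and in 8.30% of all windows. A match gives only where the letters lie, and sites outside these windows were not searched.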

How the data were processed

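Poly(A) RNA of lineage-depleted MECs was sequenced by the authors on a SOLiD instrument, 1 library per genotype. The methods describe a Bowtie-based pipeline, at most 3 mismatches and removal of mitochondrial, ribosomal and small nuclear RNA. The submitters' processing notes list Bowtie 0.12.3, SAMtools 0.1.15 and mm9, whereas the methods name a human build. Ribosomal genes still took 2.95% of WT and 3.15% of *Igfbp7*-/- mapped reads. The methods describe libraries that keep strand. Whether the counting used it, the gene annotation and the handling of multiply mapped reads were not given in the sources used here. *Bcl2*, *Bid*, *Bak1* and *Bad* overlap other genes on the opposite strand, and if strand was not used in counting the reads of such genes cannot be told apart. *Gpr137*, which overlaps *Bad*, had 115 reads in WT and 113 in *Igfbp7*-/-, and *Bcl2l13*, which overlaps *Bid*, had 1911 and 2391.

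The deposited read count per gene is not normalized. The deposited RPM is that count divided by all mapped reads of the library, and the authors obtained the deposited RPKM by dividing RPM by gene length in kb. That length was 869 bases for *Bax* and 7206 for *Bcl2*. Rows without a symbol (50, at most 0.0484% of reads) were left out.

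Genes with at least 1 RPM in either library were kept, and log2 ratios used a pseudocount of 0.1 RPM, which understates differences of low genes. Intervals are 95% Clopper-Pearson (ratios, pseudocount left out), exact conditional (ratios of ratios) and Poisson (levels) on read pairs. With 1 library per genotype no test of genotype was made. Scripts were tested on simulated data. The members and lists were chosen with earlier results of these data known. All members are named, and from each list of relatives and pathway genes the 4 called genes of highest RPM. Further genes were chosen after their values were seen (*Bik*, *Bcl2a1c*, *E2f1*, *Trp53*, *Xiap*, *Birc2*, *Birc3* and *Usp9x*). So were the cell markers *Ptprc*, *Cd74*, *Krt5*, *Elf5*, *Epcam* and *Cdh1*. Adipocyte, fibroblast and erythroid markers were also listed. Of those with at least 1 RPM, 3 of 4 adipocyte and 4 of 6 fibroblast genes were lower and 1 adipocyte gene was higher, and none of 3 erythroid genes was called. The shares over all genes were 23.0% lower and 21.4% higher. Python 3.11.15 with scipy 1.17.1, pandas 2.3.3 and Biopython 1.88, and R 4.3.3 with edgeR 4.0.16 (TMM and median of ratios factors only) were used.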

Additional observations from a re-analysis of the deposited data

How the results depend on the processing

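No paired analysis was possible because each genotype had 1 library, and for the same reason no replicate could be left out. *Bcl2l1* and *Bmf* stayed at least 1.5 times higher under all 11 alternatives that gave them a ratio, within log2 ranges of 0.74 to 1.09 and 0.59 to 0.94. *Bad* passed 1.5 times under 5 of 10 and *Bcl2* under 6 of 10. These tallies include the settings that changed only the minimum (none, or 10 RPM), which leave the ratio of a gene as it was. The count of lower members was 1 as reported. It was 0 with a pseudocount of 1 RPM, with RPKM in place of RPM, with a minimum of 10 RPM (which leaves out *Bcl2*) and with reads on named genes as the total, with or without ribosomal and small RNA. It was 2, with *Bak1* added, with TMM factors, with median of ratios factors, with ratios centred on their median and without the 20 genes of highest RPM. With a threshold of 2 times, 0 members were higher and 0 were lower. The median of the survival members moved from -0.08 to 0.11 with reads on named genes as the total, to 0.12 without ribosomal and small RNA as well, and to -0.22 without the top 20 genes. The difference of the medians kept its sign except with a minimum of 10 RPM, where it was 0.18 because *Bcl2*, *Bax* and *Bad* dropped out. The change of the survival to death-promoting balance, 1.40 times, was 1.32 on RPM, 1.99 without *Mcl1*, 1.51 against *Bax* and *Bak1* alone and 1.10 without *Bcl2l1*. Scaling without ribosomal and small RNA and the balance without *Bcl2l1* were added after seeing the data. On single reads the interval of *Bad* left out a ratio of 1. *Bad*, *Bax* and *Bcl2*, with 53 to 254 reads a library, are the members that depth limits most.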
